A study of Mus musculus with 4 samples.

Results

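Regulatory T cells that carry neuropilin-1 (Nrp1+) were compared with regulatory T cells that do not (Nrp1-) across the genes of the neuropilins and plexins, the receptors through which semaphorins act on cells. The 10 genes are Nrp1, Nrp2, Plxna1, Plxna2, Plxna3, Plxna4, Plxnb1, Plxnb2, Plxnc1 and Plxnd1, of 18193 genes with a probe set of their own on the array. They were taken as a receptor family, and every probe set annotated to 1 of them alone was used, which gave 28 probe sets. Nrp1 stands apart from the other members because its protein was the surface marker by which the cells were sorted.

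All cells came from spleens of Balb/c Foxp3 GFP mice, in which a green fluorescent protein reports the transcription factor Foxp3, and were sorted as CD4+ Foxp3+. The Nrp1+ group held 2 arrays from mice of 4 to 6 weeks. The Nrp1- group held 2 arrays, replicate 2 from mice of 4 to 6 weeks and replicate 1 from mice of 4 to 8 weeks. The title of Nrp1- replicate 1 says Nrp-, while its source name and cell type say Nrp+, and the title was followed. The labels give neither the number of mice behind an array nor whether the replicates were separate sorts, so p-values measure only the spread between these arrays, which may be technical.

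Neuropilins are single-pass receptors with a short cytoplasmic tail that bind class 3 semaphorins and vascular endothelial growth factors (VEGF). They signal through partners, mostly the class A plexins and plexin D1 for semaphorins and VEGF receptors for VEGF. Plexins are large receptors whose cytoplasmic part acts on small GTPases, and class B and C plexins bind membrane-bound semaphorins directly. In mouse regulatory T cells, Nrp1 is known as a surface marker enriched on cells that arise in the thymus and as a receptor for semaphorin 4A.

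The region before the start site is shown for Nrp1, the member whose RNA differed, and for Plxnc1 and Plxnd1, the 2 plexins with the highest within-array rank, so that the sequences can be set beside the RNA levels. Each line holds the 250 bases upstream of the annotated start, on the gene's strand, from RefSeq (GRCm38.p6). Capitals mark GGGCGG or its reverse complement CCGCCC, the core of a GC box that Sp-family factors are known to bind.
Nrp1 (chr8:128358823-128359072, + strand): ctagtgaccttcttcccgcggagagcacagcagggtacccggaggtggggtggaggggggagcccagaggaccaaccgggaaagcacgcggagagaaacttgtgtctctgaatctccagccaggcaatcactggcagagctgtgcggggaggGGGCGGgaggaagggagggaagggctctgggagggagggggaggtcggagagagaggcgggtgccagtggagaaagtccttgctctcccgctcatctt
Plxnc1 (chr10:94944846-94945095, - strand): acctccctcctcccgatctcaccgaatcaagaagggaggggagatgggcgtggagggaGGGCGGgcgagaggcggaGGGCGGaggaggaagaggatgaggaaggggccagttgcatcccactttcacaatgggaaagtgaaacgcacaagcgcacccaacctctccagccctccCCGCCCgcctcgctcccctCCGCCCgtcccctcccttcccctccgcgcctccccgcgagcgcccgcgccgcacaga
Plxnd1 (chr6:115995006-115995255, - strand): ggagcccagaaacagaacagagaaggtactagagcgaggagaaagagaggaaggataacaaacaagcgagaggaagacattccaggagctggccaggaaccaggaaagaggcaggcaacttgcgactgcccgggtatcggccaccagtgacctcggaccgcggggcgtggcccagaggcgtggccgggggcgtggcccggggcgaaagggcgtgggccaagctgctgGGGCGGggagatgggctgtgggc

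The G and C content of these windows was 64.4% for Nrp1, 68.8% for Plxnc1 and 64.8% for Plxnd1, against a median of 52.4% over 32851 mouse promoter windows of the same length. The GC box was found at 1 position in the Nrp1 window, at 4 in that of Plxnc1 and at 1 in that of Plxnd1. It was present in 9 of 9 windows of the 8 members listed with a promoter, and in 32.7% of all windows. On both strands, the forkhead core GTAAACA was in 0 of the 9 member windows and in 3.17% of all windows. The Runx core TGTGGT was in 1 of the 9, that of Plxna3, and in 14.0% of all windows. These matches describe the letters of the windows only.

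Values are probe set intensities in arbitrary units, after the 4 arrays were brought to one trimmed mean. Differences are Nrp1+ minus Nrp1- on the log2(intensity + 18.3) scale, which understates the difference of dim probe sets. The replicate numbers marked a split of the arrays, whose causes were not tested. The deposited trimmed mean was 500.003 on both arrays of replicate 1 and 150.001 on both of replicate 2. Arrays correlated at 0.977 and 0.983 within a replicate number but at 0.948 (Nrp1+) and 0.936 (Nrp1-) within a group, across 22519 probe sets, which are not independent replicates. Every member was therefore compared within replicate 1 and within replicate 2, and the test was limma with the replicate number as a block. Each set holds 1 array of each group. With 2 arrays against 2, an exact permutation test of a single value cannot go below p = 0.333, and with 2 pairs not below 0.5.

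RNA of T cells was bright on all arrays, whereas the probe set of Foxp3 was dim, which is not read as an amount of RNA. The 1 Foxp3 probe set had 2.16 and 19.9 in Nrp1+ cells and 4.45 and 36.4 in Nrp1- cells, within the range of genes of other tissues. Cd3e, a chain of the T cell receptor complex, had 7924 and 5243 in Nrp1+ cells and 8016 and 5988 in Nrp1- cells. Of the 8 genes on the regulatory T cell list, 7 had a probe set bright enough to be tested. The list, which holds the called gene Ikzf2, summed to 91881 and 86919 in Nrp1+ cells and to 77633 and 71217 in Nrp1- cells. Summed intensities of the myeloid list were 2608 and 10893 in Nrp1+ cells and 1823 and 11929 in Nrp1- cells, higher in replicate 2 of both groups. They overlapped between the groups, as did those of the lists for endothelial, B, CD8 T with NK, and plasmacytoid dendritic cells. Those of 3 erythroid genes did not, at 97.8 and 70.2 in Nrp1+ cells and 121 and 330 in Nrp1- cells, and their part in the results was not tested. Only 1 of the 3 was bright enough to be tested, and it differed by 0.48 in replicate 1 and by -2.08 in replicate 2. Plasmacytoid dendritic cells are known to carry Nrp1, and their 5 markers summed to 4642 and 5153 in Nrp1+ cells and to 4583 and 5993 in Nrp1- cells. Of the 5, 4 had a probe set bright enough to be tested, with 2 mean differences above 0 and 2 below, and 0 were called. The lectin gene Siglech, which defines these cells, was at 76.1 and 14.7 in Nrp1+ cells and at 79.7 and 47.1 in Nrp1- cells. These values were near or below the array medians of 67.4 to 78.2, and they do not stand for the other markers of the list. Endothelial cells also carry Nrp1, and their 5 markers summed to 804 and 931 in Nrp1+ cells and to 931 and 759 in Nrp1- cells. Pecam1, which T cells can also express, made up most of that sum, with 674 and 827 in Nrp1+ cells and 802 and 620 in Nrp1- cells, while the endothelial cadherin gene Cdh5 did not exceed 29.2. The part of such cells in the Nrp1 difference was not tested. In RNA from a sorted pool, fewer cells with a transcript and less transcript per cell cannot be told apart.

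Nrp1 RNA was many-fold higher in Nrp1+ cells at each of its 4 probe sets. At the brightest, 1448943_at, the intensity was 9344 and 7745 in Nrp1+ replicates 1 and 2, against 339 and 1223 in Nrp1- replicates 1 and 2. Both Nrp1+ arrays lay far above both Nrp1- arrays, and the groups did not overlap. The means were 8545 ± 1130 in Nrp1+ and 781 ± 625 in Nrp1- cells (SD, n = 2 each), a log2 difference of 3.68 (12.8-fold, standard error 0.35, limma adjusted p = 0.00255).

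The other Nrp1 probe sets had the same order of arrays by group. Probe set 1418084_at had 4167 and 4084 in Nrp1+ cells against 109 and 534 in Nrp1- cells, and differed by 3.97. Probe set 1448944_at had 4433 and 3859 in Nrp1+ cells against 66.3 and 586 in Nrp1- cells, and differed by 4.20. Probe set 1457198_at had 1531 and 3500 in Nrp1+ cells against 123 and 486 in Nrp1- cells, and differed by 3.13. It was the probe set whose Nrp1+ arrays differed most, and it still had no overlap between groups. Their limma adjusted p-values lay between 0.000117 and 0.00912. The 4 probe sets held ranks 1 to 4 of 22519 by size of the increase. Because Nrp1 protein chose the cells, these values are a check of the sort and of the array titles.

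The Nrp1 difference was larger in replicate 1 than in replicate 2 at each of the 4 probe sets, and whether the replicates differed was not tested. At 1448943_at it was 4.71 (26.2-fold) within replicate 1 and 2.64 (6.25-fold) within replicate 2. As a plain ratio of intensities, without the pseudocount, Nrp1- cells held 3.63% of the Nrp1+ level there in replicate 1 and 15.8% in replicate 2. At the other 3 probe sets the difference was 3.46 to 5.72 in replicate 1 and 2.68 to 2.89 in replicate 2. Their values on Nrp1- replicate 1, of 66.3 to 123, were no brighter than genes of other tissues on that array, which reached 125, so these replicate 1 differences give only a lower bound. Nrp1- replicate 2 was above Nrp1- replicate 1 by 1.80 to 2.84 on the log2 scale. Among Nrp1+ arrays replicate 2 was within 0.27 of replicate 1 at 3 probe sets and 1.18 above it at 1457198_at. The array titled Nrp- whose other labels read as Nrp+ had the lowest Nrp1 of the 4 arrays at each of the 4 probe sets. Its Nrp1 RNA thus goes with its title. Counted as Nrp1+ with the block kept, that array left replicate 1 without an Nrp1- array. The difference then came from replicate 2 alone (2.64 at 1448943_at), so that fit cannot decide between the labels.

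**Figure D1:**
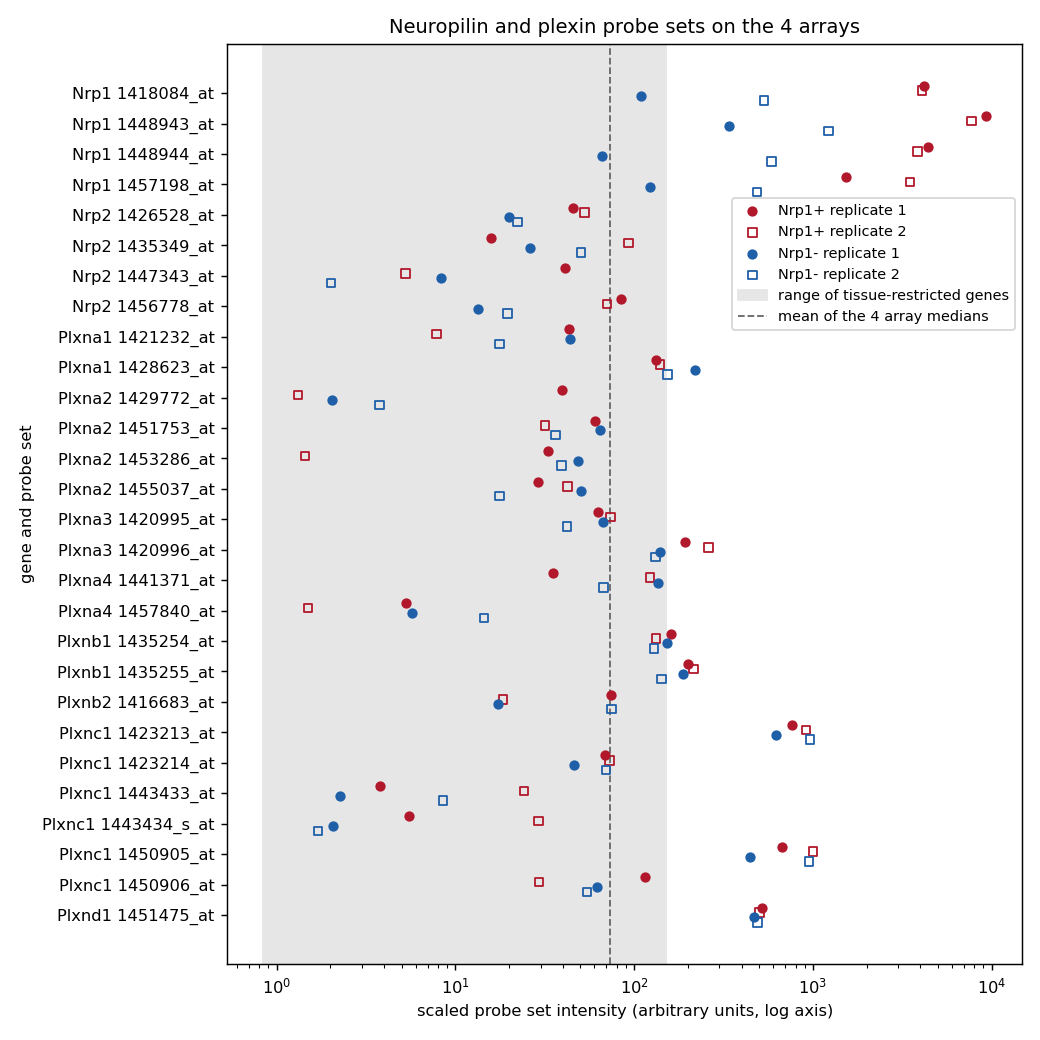
Scaled intensity (arbitrary units, log axis) of the 28 neuropilin and plexin probe sets on the 4 arrays; the grey band spans the probe sets of genes of other tissues and the dashed line is the mean array median. Nrp1 separates the groups at all 4 probe sets, while those of Nrp2, Plxna2, Plxna4 and Plxnb2 stay inside the band on every array.

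In limma with the block, 4 of the 12 member probe sets that could be tested were called higher at an adjusted p below 0.05 and 0 lower. All 4 belong to Nrp1. Of all 22519 probe sets tested, 0.124% were called higher and 0.0799% lower. In limma without the block 0 of them were called, members included (0.0%), with 243 at an unadjusted p below 0.05. A blocked fit whose prior variance did not follow the probe sets' level also called 0 (1515 unadjusted). With 3 arrays and no block, 3 Nrp1 probe sets were called without Nrp1- replicate 2 and 0 without any of the other arrays. The called Nrp1 probe set 1448944_at lay at percentile 47.1 of Nrp1- replicate 1 and at 77.5 of Nrp1- replicate 2. The filter used the mean level over all 4 arrays, so the Nrp1+ arrays raised the level by which Nrp1 probe sets entered the test. For that reason no count over the 12 is given as support.

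Which of the receptors were measured at all was read from each array's own ranking. Among 20 probe sets of genes restricted to other tissues, intensities reached 129 and 151 on the Nrp1+ arrays and 125 and 97.9 on the Nrp1- arrays, with 2 or 3 of the 20 at or above the array median. A probe set was counted as measured in a group when both its arrays were at or above their medians, which held in both groups for 10 of the 28 member probe sets and for 43.8% of all 45037 probe sets. Counting a gene by any of its probe sets, 6 of the 10 genes were measured in Nrp1+ and 6 in Nrp1- cells, the same genes at this threshold: Nrp1, Plxna1, Plxna3, Plxnb1, Plxnc1 and Plxnd1. Nrp2, Plxna2, Plxna4 and Plxnb2 were not. Nrp1, Plxnc1 and Plxnd1 exceeded 151, the highest of the other tissues' values on any array, on all 4 arrays at 1 or more of their probe sets. Plxna3 at 1420996_at and Plxnb1 at 1435255_at exceeded the highest of those values on the same array, on each of the 4 arrays. Plxna1 at 1428623_at did not, with 139 against 151 on Nrp1+ replicate 2. Levels of different probe sets depend on their own binding and are not compared as amounts of RNA.

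Plexin D1, the receptor for semaphorin 3E and a partner of neuropilins, was nearly equal in both groups. Its single probe set had 521 and 503 in Nrp1+ cells and 472 and 490 in Nrp1- cells. Both Nrp1+ arrays were above both Nrp1- arrays, but by a narrow margin. The difference was 0.09 (1.06-fold, 95% interval 0.80-fold to 1.41-fold, limma adjusted p = 0.984). It was 0.14 within replicate 1 and 0.04 within replicate 2.

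Plexin C1, the receptor for semaphorin 7A, was also bright in both groups and did not pass the test. Probe set 1423213_at had 766 and 918 in Nrp1+ cells and 626 and 967 in Nrp1- cells, and 1450905_at had 673 and 1001 in Nrp1+ cells and 445 and 951 in Nrp1- cells. At both, the groups overlapped and the arrays of replicate 2 were above those of replicate 1. The differences were 0.11 (95% interval -0.25 to 0.46) and 0.33 (-0.06 to 0.72), with limma adjusted p-values of 0.979 and 0.798. The other 4 Plxnc1 probe sets, 1423214_at, 1443433_at, 1443434_s_at and 1450906_at, were below the level filter, with intensities of 1.71 to 115. Probe sets of Plxnc1 thus differed widely in brightness on the same arrays.

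The class A plexins are the signalling partners of neuropilins for class 3 semaphorins, and none of them passed. Plxna3 had 193 and 260 in Nrp1+ cells against 139 and 131 in Nrp1- cells at 1420996_at, without overlap. Its difference was 0.66 (1.58-fold, 95% interval 0.03 to 1.29), at 0.43 in replicate 1 and 0.90 in replicate 2. The unadjusted limma p was 0.0411 and the adjusted p 0.686, where 6.86% of all probe sets tested had an unadjusted p below 0.05. The second Plxna3 probe set, 1420995_at, had 62.7 and 73.8 in Nrp1+ cells and 67.2 and 42.1 in Nrp1- cells, with overlapping groups and opposite directions in the replicates.

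Plxna1 pointed the other way. At 1428623_at it had 132 and 139 in Nrp1+ cells against 220 and 154 in Nrp1- cells, so both Nrp1+ arrays were below both Nrp1- arrays. The difference was -0.40 (95% interval -1.05 to 0.26, limma adjusted p = 0.895), at -0.67 in replicate 1 and -0.13 in replicate 2. Its dimmer probe set 1421232_at had 43.0 and 7.82 in Nrp1+ cells and 43.5 and 17.7 in Nrp1- cells.

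Plxna2 and Plxna4 were dim, and the Plxna2 probe sets differed in direction among themselves. The 4 Plxna2 probe sets were all below the filter, with intensities of 1.32 to 64.2, and 2 of them had opposite directions in the replicates. At 1453286_at Plxna2 had 33.1 and 1.44 in Nrp1+ cells against 48.4 and 39.3 in Nrp1- cells, with differences of -0.37 and -1.54 and no overlap. Plxna4 at 1441371_at had 35.4 and 123 in Nrp1+ cells and 136 and 67.4 in Nrp1- cells. The Nrp1+ array was lower by 1.52 in replicate 1 and higher by 0.72 in replicate 2, and the limma adjusted p was 0.970 for a mean difference of -0.40 (95% interval -1.48 to 0.68). Its other probe set 1457840_at, below the filter, had 5.27 and 1.50 in Nrp1+ cells against 5.74 and 14.5 in Nrp1- cells, also without overlap.

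The class B plexins bind class 4 semaphorins, among them semaphorin 4D of T cells. Plxnb1 had 160 and 132 in Nrp1+ cells and 154 and 129 in Nrp1- cells at 1435254_at, a difference of 0.04 (95% interval -0.60 to 0.69). At 1435255_at it had 200 and 215 in Nrp1+ cells and 187 and 142 in Nrp1- cells, a difference of 0.31 (-0.30 to 0.93). The groups overlapped at the first and not at the second, and limma adjusted p-values were 0.992 and 0.928. Plxnb2 had 74.1 and 18.5 in Nrp1+ cells and 17.3 and 74.6 in Nrp1- cells at its single probe set. It was higher by 1.37 in replicate 1 and lower by 1.34 in replicate 2, so its mean difference of 0.02 describes neither replicate.

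**Figure D2:**
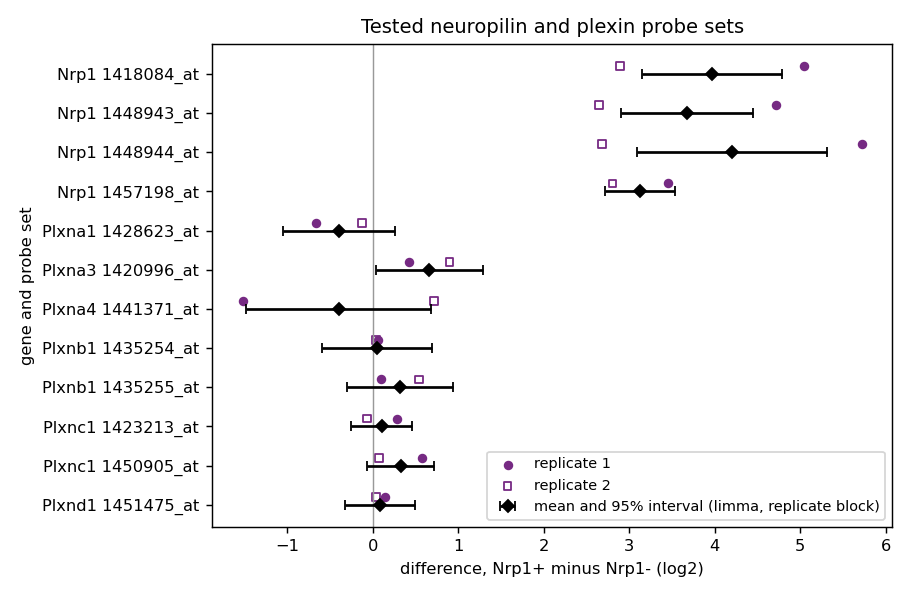
Difference between Nrp1+ and Nrp1- cells (log2) for the 12 tested probe sets, with the mean and 95% interval from limma with the replicate block (diamonds and bars) and the within-replicate values (circles and squares). The 4 Nrp1 probe sets lie at 3.13 to 4.20, and of the 8 plexin probe sets only the Plxna3 interval, unadjusted for multiple testing, leaves out 0.

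Nrp2, the paralog that binds an overlapping set of class 3 semaphorins and VEGF-C, was dim in both groups. Both Nrp1+ arrays were above both Nrp1- arrays at 2 of its 4 probe sets, and at 13.1% of all 45037 probe sets. At 1456778_at it had 84.9 and 70.5 in Nrp1+ cells against 13.3 and 19.6 in Nrp1- cells, a difference of 1.71 in replicate 1 and 1.23 in replicate 2. At 1426528_at it had 45.5 and 52.7 in Nrp1+ cells against 20.1 and 22.2 in Nrp1- cells, a difference of 0.73 and 0.81. These 8 intensities lie within the range of the probe sets of genes from other tissues.

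The other Nrp2 probe sets overlapped between the groups. Probe set 1435349_at had 15.9 and 93.2 in Nrp1+ cells and 26.3 and 50.4 in Nrp1- cells, with a difference of -0.38 in replicate 1 and 0.70 in replicate 2. Probe set 1447343_at had 40.9 and 5.25 in Nrp1+ cells and 8.33 and 2.02 in Nrp1- cells, with a difference of 1.15 in replicate 1 and 0.21 in replicate 2. Of the 4 Nrp2 probe sets, 3 had the same sign in both replicates, higher in Nrp1+ cells, and 1435349_at had opposite signs. Over all 45037 probe sets, 49.1% had opposite signs in the replicates, and the share higher in both was not counted. No direction of the gene is read from these dim probe sets. All 4 were below the filter and got no test there. In limma with the block and no filter, 1456778_at had an unadjusted p of 0.0192 and an adjusted p of 0.864. In that fit 2505 of 45037 probe sets had an unadjusted p below 0.05. It called 0 of the 24 member probe sets outside Nrp1, and called 0.0355% of 45037 probe sets higher.

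Among the 24 probe sets outside Nrp1, both Nrp1+ arrays were above both Nrp1- arrays at 6 and below them at 3. Over all 45037 probe sets these shares were 13.1% and 12.2%. The within-replicate differences had opposite signs at 8 of the 24, against 49.1% of all probe sets. The median difference of the 8 tested plexin probe sets was 0.10, beside 0.01 over all probe sets tested, and their limma adjusted p-values ran from 0.686 to 0.992.

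**Figure D3:**
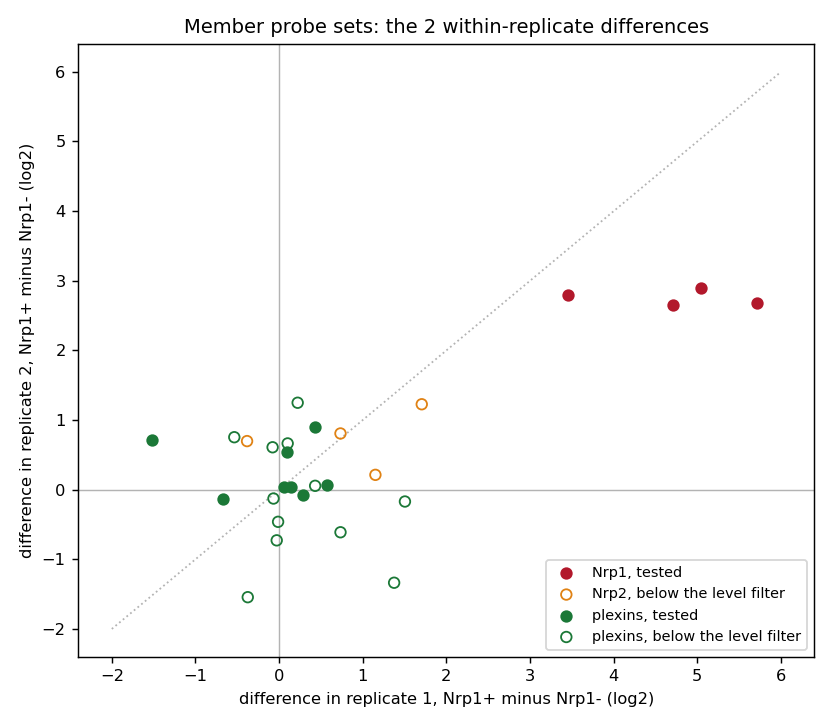
Difference between Nrp1+ and Nrp1- cells (log2) in replicate 1 (x axis) and replicate 2 (y axis) for the 28 probe sets; filled points were tested, open points were below the level filter, and the dotted line marks equal differences. Nrp1 lies below that line, at 3.46 to 5.72 against 2.64 to 2.89, and 8 of the other 24 points fall in the quadrants of opposite sign.

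Genes that act with these receptors were read from 3 lists, of ligands, partner receptors and cytoplasmic effectors, at the brightest passing probe set of each gene. Of 25 semaphorin and VEGF ligand genes on the array 6 could be tested, and 0 were called in either direction, with 0 at an unadjusted p below 0.05 in limma with the block. Of 17 partner receptor genes 7 could be tested, 1 was called higher and 1 lower. Of 34 cytoplasmic effector genes 24 could be tested and 0 were called, with 2 at an unadjusted p below 0.05. Over all 10200 genes tested, 0.167% were called higher and 0.127% lower. The lists were chosen with earlier results of these data known, so the counts are not given as support for an enrichment. The medians of the 3 lists were 0.04, 0.16 and 0.11, beside 0.00 over all genes.

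Itgb1, the integrin beta-1 chain that can associate with Nrp1, was the called partner receptor that was higher. It had 2166 and 1527 in Nrp1+ cells against 304 and 616 in Nrp1- cells at 1426918_at, a difference of 2.02 (standard error 0.27, limma adjusted p = 0.0215), without overlap. Tgfbr3, the TGF-beta coreceptor betaglycan, was the lower one. It had 455 and 440 in Nrp1+ cells against 977 and 1025 in Nrp1- cells, a difference of -1.13 (standard error 0.16, limma adjusted p = 0.0298). Neither was called without the block. Of the VEGF receptor genes that pair with neuropilins, Kdr, Flt1 and Flt4 had no probe set past the filter, and Kdr had 39.1 and 50.9 in Nrp1+ cells and 49.5 and 27.7 in Nrp1- cells. Flt4 had 62.9 and 58.4 in Nrp1+ cells against 23.2 and 19.2 in Nrp1- cells at 1444052_at, without overlap and within the range of genes of other tissues, and 46.8 and 38.2 in Nrp1+ cells and 54.3 and 6.75 in Nrp1- cells at 1421442_at.

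**Figure D4:**
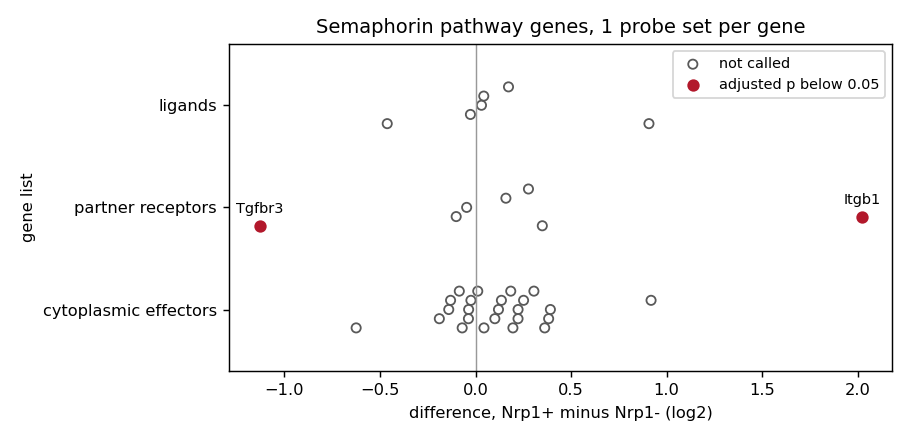
Difference between Nrp1+ and Nrp1- cells (log2) of semaphorin pathway genes at 1 probe set per gene, in rows by list, with genes called in limma with the replicate block filled. Itgb1 at 2.02 and Tgfbr3 at -1.13 are the called genes, and none of the 24 effectors was called.

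The genes whose pattern over the 4 arrays was nearest to that of Nrp1 probe set 1448943_at were Itgb1, Plagl1, which encodes a zinc finger transcription factor, and Crat, a carnitine acetyltransferase gene. Likeness was the root mean square distance between values centred on each probe set's mean, over 4 arrays. The values were not scaled, so the distance depends on the size of a difference as well as on its shape. It was 0.88 for Itgb1, 1.03 for Plagl1 and 1.05 for Crat (log2), against 0.20 to 0.58 for the other 3 Nrp1 probe sets. Itgb1 shared the larger difference in replicate 1 (2.76, against 1.29 in replicate 2), whereas Crat differed by 2.06 and 2.09. Crat had 201 and 189 in Nrp1+ cells against 34.2 and 30.6 in Nrp1- cells. Its Nrp1- values were below the array medians and within the range of genes of other tissues, so the size of its difference is uncertain.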

How the data were processed

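RNA from the sorted cells was hybridised to a 1-colour Affymetrix mouse array. The values deposited by the authors are linear probe set intensities computed by the MAS5 algorithm (per the submitters' processing notes). Its version and settings are not given in the sources, and detection calls were not used here. Arrays were scaled to one trimmed mean (2% cut at each end) and logged as log2(intensity + 18.3), a pseudocount of 0.25 times the average of the 4 array medians. Of 45101 probe sets, 64 were controls, 34945 had 1 gene, 932 several and 9160 no gene in the platform annotation, and 0 symbols changed against RefSeq. Those whose mean level reached percentile 50 (22519) entered the test, with limma 3.58.1 under R 4.3.3 (mean-variance trend, two-sided, Benjamini-Hochberg over all of them, threshold 0.05).

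The replicate number was a block: deviations of same-numbered arrays from their group means correlated at 0.70 across probe sets, and spiked poly-A controls had a median of 2277 (Nrp1+) and 2723 (Nrp1-) in replicate 1, and of 5.51 (Nrp1+) and 5.49 (Nrp1-) in replicate 2. With it, 1 residual degree of freedom joined 9.00 from the variance prior, so standard errors rest mostly on probe sets of like level. The code was tested on simulated data. Members, lists and the block were chosen with earlier results of these data known. Genes named beside the members were the called list genes and the 3 nearest in pattern, and marker genes that a result turned on. The number of arrays limits precision. Alternatives changed the normalization, pseudocount, filter, block, trend, arrays included, label of Nrp1- replicate 1 and unit of the fit.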

Additional observations from a re-analysis of the deposited data

How the results depend on the processing

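The Nrp1 call needs the replicate block and the mean-variance trend. Without the block, limma called 0 probe sets of the table and 0 of the members (243 at an unadjusted p below 0.05), with Nrp1 at 3.68 (adjusted p = 1.00). Without the trend it also called 0 and 0 (1515 unadjusted), with Nrp1 at 3.68 (adjusted p = 0.697). Leaving out 1 array, in fits without the block where the lone array of a group is assumed to vary like the others, gave 0 to 3 calls in the table and 0 to 3 among the members, and Nrp1 at 1448943_at between 2.78 (without Nrp1- replicate 1) and 4.58 (without Nrp1- replicate 2), or 2.21 to 5.62 over its 4 probe sets. With Nrp1- replicate 1 counted as Nrp1+ and the block kept, the difference rested on replicate 2 alone. Nrp1 was thus at its replicate 2 value of 2.64, and that fit cannot decide between the labels. The table held 140 calls with quantile normalization, 30 with the larger pseudocount, 24 with no filter and 26 with the filter at percentile 70, and the 4 Nrp1 probe sets were called in each of these. With 1 probe set per gene, 1 member was called. No plexin probe set was called in any fit. At array percentile 40, 7 members counted as measured in Nrp1+ and 7 in Nrp1- cells, Nrp2 in Nrp1+ alone and Plxna4 in Nrp1- alone. At percentile 60, 5 counted in Nrp1+ and 4 in Nrp1- cells, Plxna3 and Plxnb1 in Nrp1+ alone and Plxna1 in Nrp1- alone.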
